A study of Homo sapiens with 12 samples.

Results

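The leukocyte immunoglobulin-like receptor genes LILRA1, LILRA2, LILRA4, LILRA5, LILRB1, LILRB2, LILRB3 and LILRB4 were followed through 4 peak lists of H3K4me2, the dimethylation of lysine 4 of histone H3. They were taken by name from the GENCODE release 44 annotation of GRCh38 and are 8 of 19970 protein-coding genes on the 23 chromosomes that the lists use. H3K4me2 was mapped by chromatin immunoprecipitation and paired-end sequencing with 75-base reads in U-937, a human monocytic line, named in the labels as acute myeloid leukaemia cells. All groups were this 1 line, so other cell lines and primary cells are not represented. The cells were kept for 24 hours with the vehicle DMSO, with all-trans retinoic acid (ATRA) at 0.1 µM, with Corin at 0.1 µM, or with ATRA and Corin together at 0.1 µM each. Corin is a synthetic compound directed at the CoREST complex, where it inhibits the demethylase LSD1, which removes methyl groups from H3K4, together with the deacetylases HDAC1 and HDAC2. Each treatment had 2 H3K4me2 libraries and 1 input library, 12 libraries in all, and is represented by 1 peak list pooled over its H3K4me2 libraries. Values for single replicates are therefore lacking, their spread cannot be given, and no test between treatments was made. Each difference below is a difference between 4 lists.

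These receptors sit on the surface of monocytes, macrophages, dendritic cells and some lymphocytes. The inhibitory members, LILRB1 to LILRB4, carry tyrosine-based inhibitory motifs in their tails and recruit phosphatases such as PTPN6. The activating members pair with the adaptor FCER1G, which signals through the kinase SYK. Several members bind HLA class I molecules, and the family is encoded in the leukocyte receptor complex on chromosome 19, beside the killer cell receptor genes. H3K4me2 marks promoters and enhancers and can extend into the bodies of genes that are particular to a cell type.

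On chromosome 19 (GRCh38) the genes lie in 2 groups. LILRB3 (54216278 to 54223506), LILRB2 (54273812 to 54281184), LILRA5 (54307070 to 54313166) and LILRA4 (54333185 to 54339162) are on the minus strand and fill the first 122.89 kb. LILRA2 (54572920 to 54590287), LILRA1 (54593582 to 54602381), LILRB1 (54617158 to 54638022) and LILRB4 (54643889 to 54670359) are on the plus strand and fill the last 97.4 kb. The 233.76 kb between the groups hold LAIR1, LAIR2, TTYH1, LENG8, LENG9 and CDC42EP5, among others. The whole span measures 454.08 kb. The gene model of RPS9, a ribosomal protein gene on the opposite strand, runs across LILRB3, and a long noncoding RNA gene (ENSG00000275210) runs across parts of LILRA5 and LILRA4. Immunoprecipitated fragments carry no strand, so a peak in these overlaps cannot be assigned to either gene.

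The receptors are paralogs, and their promoters show how alike they are. RefSeq promoter sequences (GRCh38.p14, 300 bases each) were matched for 7 of the 8 members, and the 120 bases before the start site are printed here to show 2 sequence families within the cluster. Capitals mark GGAAGT or AGGAAG, letters that resemble the core bound by ETS factors, on either strand. These letters were chosen after the sequences had been seen. The first family holds LILRB2, LILRA5, LILRA1 and LILRB1.
LILRB2 (chr19:54281111-54281230, minus strand): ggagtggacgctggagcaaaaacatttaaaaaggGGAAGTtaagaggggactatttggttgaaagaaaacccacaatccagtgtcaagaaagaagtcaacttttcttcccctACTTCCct
LILRA5 (chr19:54313167-54313286, minus strand): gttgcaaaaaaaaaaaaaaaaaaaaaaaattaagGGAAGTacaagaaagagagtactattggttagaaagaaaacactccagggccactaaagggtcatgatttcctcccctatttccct
LILRA1 (chr19:54593512-54593631, plus strand): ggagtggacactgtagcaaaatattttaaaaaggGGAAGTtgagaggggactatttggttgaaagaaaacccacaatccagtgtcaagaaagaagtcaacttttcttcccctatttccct
LILRB1 (chr19:54630364-54630483, plus strand): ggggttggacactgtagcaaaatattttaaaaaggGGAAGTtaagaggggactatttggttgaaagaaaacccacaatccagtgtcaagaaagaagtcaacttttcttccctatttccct
The second family holds LILRB3, LILRA2 and LILRB4.
LILRB3 (chr19:54223008-54223127, minus strand): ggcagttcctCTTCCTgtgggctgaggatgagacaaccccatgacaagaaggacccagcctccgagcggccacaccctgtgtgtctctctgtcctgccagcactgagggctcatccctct
LILRA2 (chr19:54573670-54573789, plus strand): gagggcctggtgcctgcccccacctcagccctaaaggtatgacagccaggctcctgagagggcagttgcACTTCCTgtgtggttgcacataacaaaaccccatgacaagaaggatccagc
LILRB4 (chr19:54662865-54662984, plus strand): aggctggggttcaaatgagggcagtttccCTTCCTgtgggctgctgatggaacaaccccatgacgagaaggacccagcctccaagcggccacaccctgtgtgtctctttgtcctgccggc

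Over the full 300 bases, members of the first family were identical at 71.9% to 94.0% of 292 to 303 aligned columns, and LILRA1 and LILRB1 were the closest pair at 94.0%. Members of the second family were identical at 76.7% to 83.4% of 241 to 274 columns. Between the families the best local alignments covered only 11 to 44 columns. The families cross the inhibitory and activating names: LILRB2 and LILRB1 share one with LILRA1 and LILRA5, and LILRA2 shares the other with LILRB3 and LILRB4. GGAAGT stood at position -86 of LILRB2, LILRA5 and LILRA1, at -85 of LILRB1 and again at -8 of LILRB2. AGGAAG stood at -110 of LILRB3 and -91 of LILRB4, and in LILRA2 it (-50) overlapped a GGAAGT (-51). Such letters are common, since 22.8% of 35116 RefSeq promoters held GGAAGT and 33.6% held AGGAAG. The 7 promoters held 2 to 9 CG dinucleotides per 300 bases, against a median of 14 over all promoters, and 43.6% of all promoters held 9 or fewer. A further 4 motifs were searched on both strands of the 7 promoters as exact letters. A PU.1 core (GAGGAAG, in 13.6% of all promoters), an AP-1 site (TGANTCA, 7.7%) and a retinoid receptor core (AGGTCA, 13.8%) matched none. Other forms of these sites were not searched, so their absence from the promoters cannot be read from this. A RUNX core (TGTGGTT, 4.3%) matched LILRA2 alone, at -43.

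Most receptor start sites were marked in vehicle-treated cells. The canonical start site lay under a peak for 7 of 8 members with DMSO (47.3% of all protein-coding genes), 7 with ATRA (48.1%), 6 with Corin (38.0%) and 7 with both drugs (38.0%). Within 1 kb of the start site a peak lay for 8 members with DMSO (61.3% of all genes), 8 with ATRA (61.5%), 7 with Corin (61.5%) and 7 with both drugs (62.3%). The start sites of LILRB1, LILRB2, LILRB3, LILRA1, LILRA2 and LILRA5 were marked in every list. The remaining members differed between lists in opposite ways. LILRA4 had a peak over its start site in the ATRA+Corin list only, and LILRB4 had one in the DMSO and ATRA lists only. Among all genes, a start site covered in the list of both drugs but not in that of DMSO, as that of LILRA4, was found for 2.68%; against ATRA the share was 1.99% and against Corin 5.61%. A start site covered with DMSO but not in the treated list, as that of LILRB4, was found for 11.6% in the comparison with Corin and 11.9% in that with both drugs. LILRB4 also had one with ATRA and none with both drugs, as did 2403 of all 19970 genes (12%). No member gained a start-site peak from DMSO to Corin (2.31% of all genes).

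**Figure D1:**
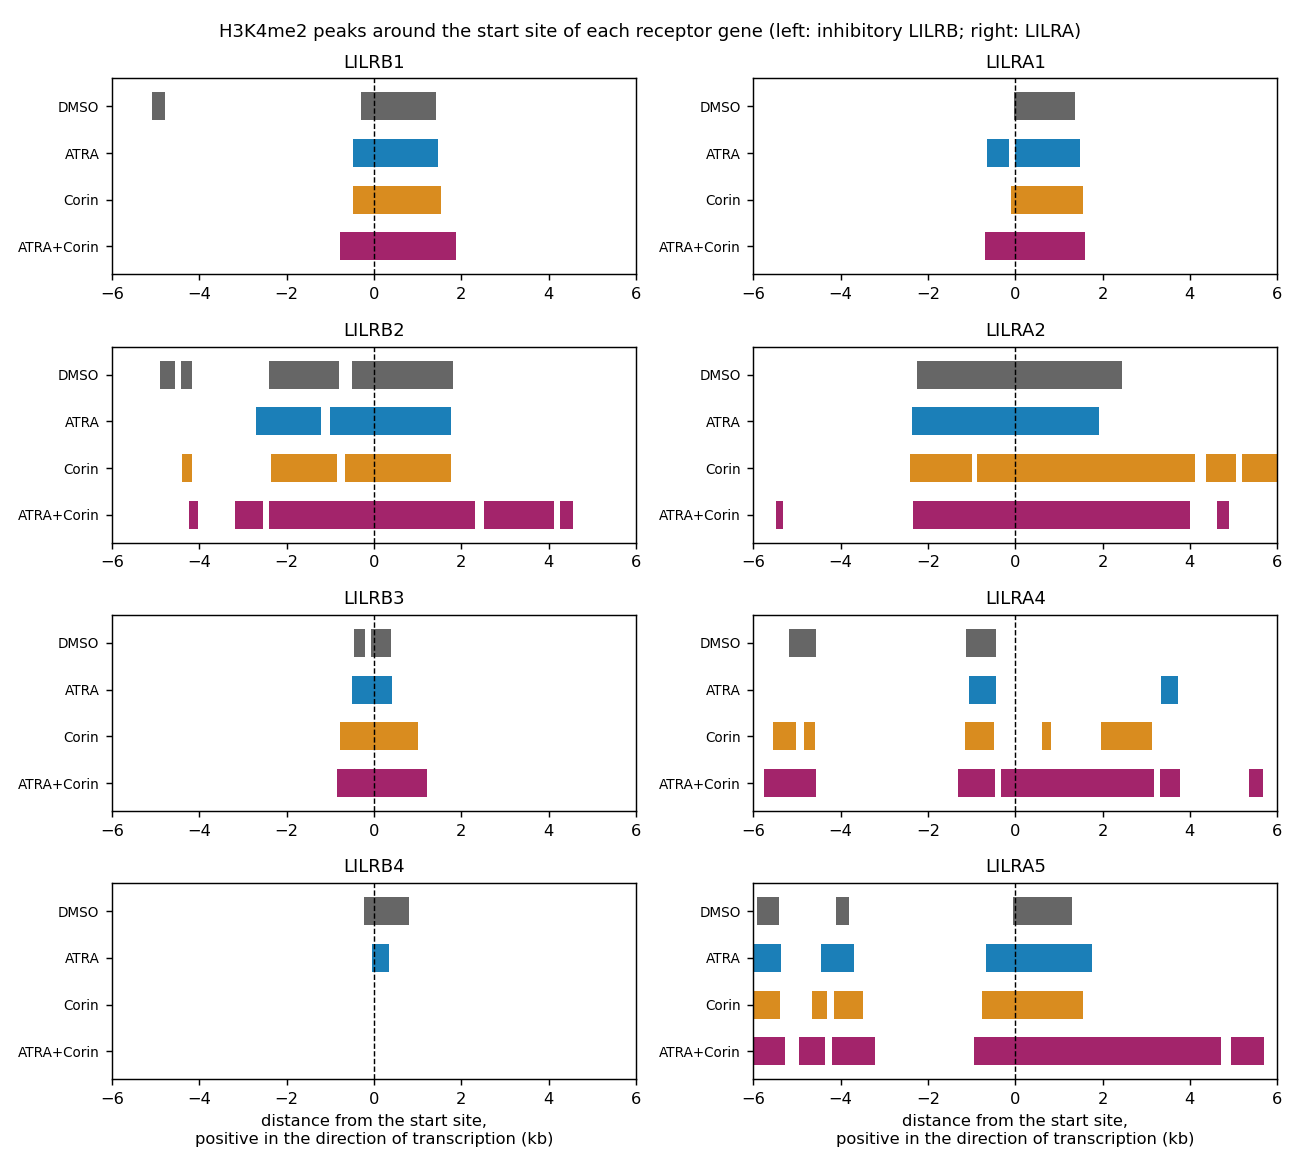
H3K4me2 peaks within 6 kb of the canonical start site of each receptor gene (horizontal axis, kb, positive in the direction of transcription), with 1 row per peak list and a bar for each peak. In the ATRA+Corin rows the start-site peaks of LILRA5, LILRA2, LILRA4 and LILRB2 reach 4722, 4004, 3189 and 2302 bp downstream, and LILRB4 has no peak in this window with Corin or ATRA+Corin.

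The larger difference lay inside the genes. The share of the gene body under peaks had a median over the 8 members of 13.0% with DMSO, 14.4% with ATRA, 21.7% with Corin and 26.7% with both drugs. Over all protein-coding genes the medians were 4.13%, 4.69%, 5.34% and 6.04%. These include genes with no peak in the body. Among genes with a body peak in the list, the medians were 7.51%, 8.2%, 9.25% and 10.1%. A body peak was found for 7 members with DMSO and for all 8 in each other list. A gain of at least 10 percentage points over DMSO was used to count members; this size was chosen after the values were seen. No member passed it with ATRA (1.51% of all genes did). After Corin 3 members passed it, LILRA2, LILRA4 and LILRB3 (4.52% of all genes). After ATRA+Corin 5 members passed it, LILRA2, LILRA4, LILRA5, LILRB2 and LILRB3 (8.12% of all genes). Against the ATRA list, both drugs passed it for the same 5 members (5.91% of all genes), and against the Corin list for LILRA4, LILRA5 and LILRB2 (2.67%). Short genes reach such a gain more easily. Among the 6501 genes with bodies in the length range of the members, 5.98 to 26.5 kb, 2.08% passed it with ATRA, 6.95% with Corin and 12.7% with both drugs. LILRA2 dropped out of the ATRA+Corin count when only peaks with a −log10 q of at least 5 were kept, leaving 4 members (7.95% of all genes).

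**Figure D2:**
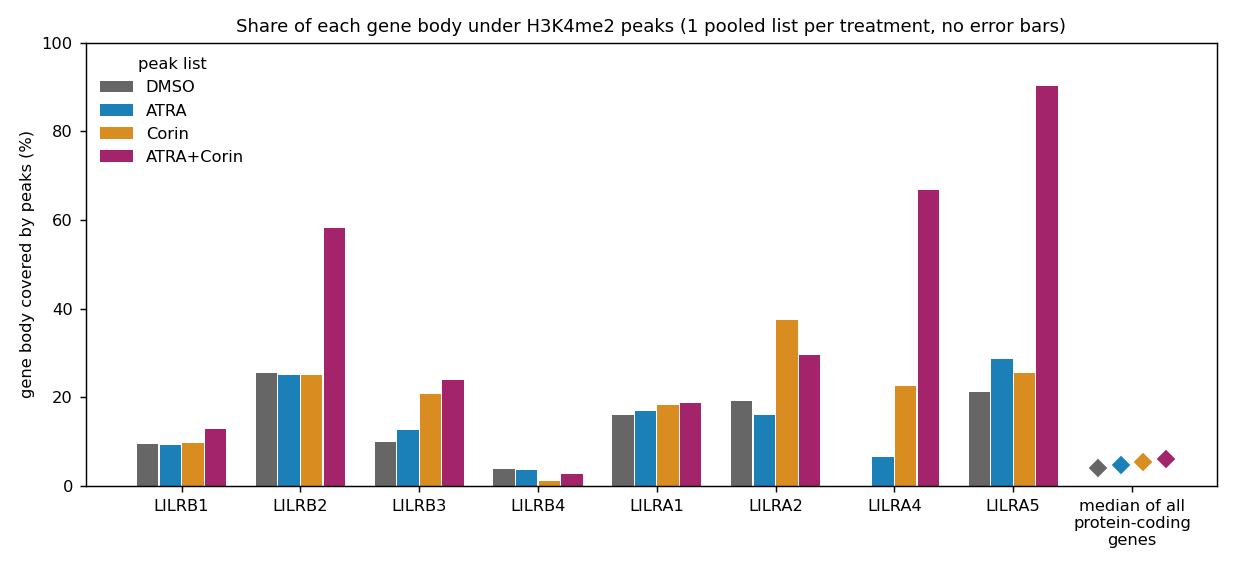
Share of each receptor gene body under H3K4me2 peaks (vertical axis, %), with a bar for each of the 4 peak lists and no error bars, since each list is pooled. Diamonds show the median over all protein-coding genes. LILRA5, LILRA4 and LILRB2 reach 90.2%, 66.7% and 58.2% with both drugs, while LILRA1, LILRB1 and LILRB4 stay within 4 points of their DMSO values in every list.

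The inhibitory LILRB2, a receptor for HLA class I on myeloid cells, was covered over 25.4% of its body with DMSO, 24.9% with ATRA, 24.98% with Corin and 58.2% with both drugs. The first 3 values lie within 1 point of each other, and the ATRA+Corin list stands apart. The peak over its start site was 2293 bp wide with DMSO, 2767 bp with ATRA, 2438 bp with Corin and 4713 bp with both drugs. The first 3 lists had a second, adjacent peak of 1602 bp, 1498 bp and 1524 bp upstream, a stretch that the single ATRA+Corin peak largely spans. The covered bases within 2.5 kb of the start site therefore differed less than the widths: 3895 with DMSO, 4061 with ATRA, 3962 with Corin and 4713 with both drugs, 1.21 times the DMSO value. The ATRA+Corin list had 2 further peaks in exon-containing parts of the body, at 54276557 to 54276856 (−log10 q 3.44) and at 54276986 to 54278601 (−log10 q 25.1), where the other lists had none. The second of these held 84 fragments at its summit, with a fold over input of 7.04. Fold and −log10 q are the authors' values for each peak, and they rank peaks within a list.

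LILRB3, an inhibitory receptor of myeloid cells, had more covered sequence around its start site in each treated list than with DMSO. The start-site peak was 458 bp wide with DMSO, 918 bp with ATRA, 1786 bp with Corin and 2079 bp with both drugs. The DMSO list had a second peak of 257 bp with 25 fragments at 54223202 to 54223458, within the stretch that the single treated peaks cover. With it, 715 bases within 2.5 kb of the start site were covered with DMSO, and the 2079 covered with both drugs were 2.91 times as many. The fragments at the summit, recovered from the deposited fold and p, numbered 61 with DMSO (95% Poisson interval 46.7 to 78.4), 107 with ATRA (87.7 to 129.3), 155 with Corin (131.6 to 181.4) and 220 with both drugs (191.9 to 251.1). None of these intervals overlap; they cover counting error only. The relative depth of the pooled H3K4me2 libraries was estimated from the lowest backgrounds recovered with the fragments. This estimate was 1.016 with ATRA, 1.097 with Corin and 1.199 with both drugs, with DMSO at 1. By −log10 q, the peak stood above 69.4% of its list with DMSO, 67.9% with ATRA, 97.1% with Corin and 96.96% with both drugs. Of the gene body, 9.89% was covered with DMSO, 12.7% with ATRA, 20.7% with Corin and 23.8% with both drugs. LILRB3 is also the member whose reads are hardest to place: of the 75-base windows of its body, 73.0% occur once in the reference chromosomes, and of those within 2.5 kb of its start site, 64.6%. How the authors placed reads with several matches is not given in the sources used here, and the part of this in the LILRB3 values was not tested. Over the whole span 94.1% of the windows occur once; when the alternative haplotypes of the reference are counted too, 4.11% do.

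For LILRB1, an HLA class I receptor of monocytes and lymphocytes, body coverage lay within 4 points in the 4 lists, while the bases covered within 2.5 kb of the start site were 1.56 times as many with both drugs as with DMSO. Its body was covered over 9.54% with DMSO, 9.31% with ATRA, 9.69% with Corin and 12.8% with both drugs. The start-site peak was 1706 bp wide with DMSO, 1943 bp with ATRA, 2021 bp with Corin and 2664 bp with both drugs. By −log10 q it stood above 91.9% of its list with DMSO, 95.9% with ATRA, 91.6% with Corin and 81.8% with both drugs. A weak intronic peak at 54625404 to 54625688 (−log10 q 2.92, 24 fragments) was in the DMSO list only. The most distant annotated start site of the gene, 13326 bp upstream of the canonical one, was under no peak in any list.

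LILRB4, an inhibitory receptor that is high on monocytic leukaemia cells and binds APOE, was the member with the least body coverage in the ATRA, Corin and ATRA+Corin lists; with DMSO, LILRA4 had none. Its start-site peak was 1030 bp wide with 25 fragments at the summit with DMSO (−log10 q 7.34) and 379 bp wide with 18 fragments with ATRA (−log10 q 3.53). After Corin the nearest peak lay 18712 bp upstream of the start site, and with both drugs 18371 bp upstream. The ATRA peak is among the weakest of its list, above 9.7% of the peaks, and it is lost at a −log10 q of at least 5. A separate region at 54643621 to 54644614, over the 5′ end of the gene model, showed the reverse: the DMSO list had no peak there, while ATRA (−log10 q 11.6), Corin (3.25) and ATRA+Corin (12.4) each had one. The canonical start site lies 19096 bp inside the gene model. In the basic transcript set of GENCODE, the LILRB4 start sites run from 54662128 to 54663020, so none lies in the upstream region. Among the members, the start site nearest to this region was that of LILRB1, 13137 bp away. In this upstream region 80.5% of the 75-base windows occur once in the reference chromosomes. Body coverage, counted over the whole gene model, was 3.89% with DMSO, 3.54% with ATRA, 1.06% with Corin and 2.74% with both drugs. Peaks were thus found at the start site in the DMSO and ATRA lists and over the far 5′ end in the 3 treated lists, with the ATRA list holding both.

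Among the activating receptors, LILRA5, which is found on monocytes and neutrophils, had the widest difference. Its body was covered over 21.2% with DMSO, 28.7% with ATRA, 25.4% with Corin and 90.2% with both drugs. The start-site peak was 1339 bp wide with DMSO, 2415 bp with ATRA, 2308 bp with Corin and 5661 bp with both drugs, reaching 4722 bp into the gene in the last. The summit held 90 fragments with DMSO (72.4 to 110.6), 204 with ATRA (177 to 234), 145 with Corin (122.4 to 170.6) and 251 with both drugs (220.9 to 284). At the summit the ATRA value was thus above the Corin value, whereas the widths after the single drugs were alike. The median over all peaks of a list was also higher with ATRA, 47 fragments, than with Corin, 40. By −log10 q, the LILRA5 peak stood above 68.06% of its list with DMSO, 91.12% with ATRA, 89.41% with Corin and 96.75% with both drugs. LILRA5 also had the largest difference between ATRA and DMSO in start-site peak width: 2415 of the bases within 2.5 kb of its start site were covered with ATRA and 1339 with DMSO. It was the one member with at least 1.5 times as many covered bases there with ATRA (3.0% of the genes with a peak in this window in both lists compared). LILRB4 had no peak in the window with Corin or with both drugs and is not counted in those comparisons. After Corin LILRA4, LILRA5 and LILRB3 reached that ratio (7.08% of genes), and with both drugs LILRA1, LILRA4, LILRA5, LILRB1 and LILRB3 did (10.9%). Against ATRA, both drugs reached it at LILRA4 and LILRB3 (6.23%), and against Corin at LILRA4 (2.85%). A further peak near the end of the gene, at 54307459 to 54308233 (−log10 q 7.78), was in the ATRA+Corin list only.

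LILRA4, known as a receptor of plasmacytoid dendritic cells that binds BST2, had no peak in its body with DMSO. Coverage was 6.61% with ATRA, 22.7% with Corin and 66.7% with both drugs. A peak upstream of the start site was present in all 4 lists; its near edge lay 450 bp from the start site with DMSO, 444 bp with ATRA and 488 bp with Corin. After ATRA+Corin a second peak of 3526 bp ran from 336 bp upstream to 3189 bp downstream of the start site. This long peak was a modest one within its list: its fold over input was 4.17, its −log10 q of 9.11 was above 39.6% of the peaks, and its summit, 3025 bp inside the gene, held 49 fragments (36.3 to 64.8). In the same stretch the Corin list had peaks at 54336024 to 54337189 (−log10 q 5.50) and 54338353 to 54338540 (2.45). The single ATRA peak in the body, at 54335430 to 54335824, had a −log10 q of 3.69 and 18 fragments. With both drugs that stretch also had a peak (54335381 to 54335854, −log10 q 1.34), as did the end of the gene (54333477 to 54333801, −log10 q 1.61, not in the other lists). Coverage with ATRA was 0% without peaks under a −log10 q of 5. Of the 75-base windows in the body of LILRA4, 98.6% occur once in the reference chromosomes. The defining markers of plasmacytoid dendritic cells were not at 0 in these lists. CLEC4C, IL3RA, IRF7 and TCF4, 4 of the 5 listed, had a peak within 1 kb of the start site in every list, and SPIB had none there. Over all genes the share was 61.3% to 62.3% across the lists. Body coverage of these 5 markers was higher with both drugs than with DMSO for each: 1.48% and 9.52% for CLEC4C, 4.36% and 12.75% for IL3RA, 34.98% and 64.56% for IRF7, 13.07% and 15.4% for SPIB, and 1.77% and 3.38% for TCF4. Their median was 4.36% with DMSO, 4.36% with ATRA, 9.88% with Corin and 12.75% with both drugs. Such a difference was not particular to these markers. Over all protein-coding genes the median was 4.13% with DMSO and 6.04% with both drugs. For B cell markers it was 15.2% and 22.59%, and for T cell markers 2.44% and 6.47%. The part of the plasmacytoid dendritic cell markers in the LILRA4 values was not tested.

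**Figure D3:**
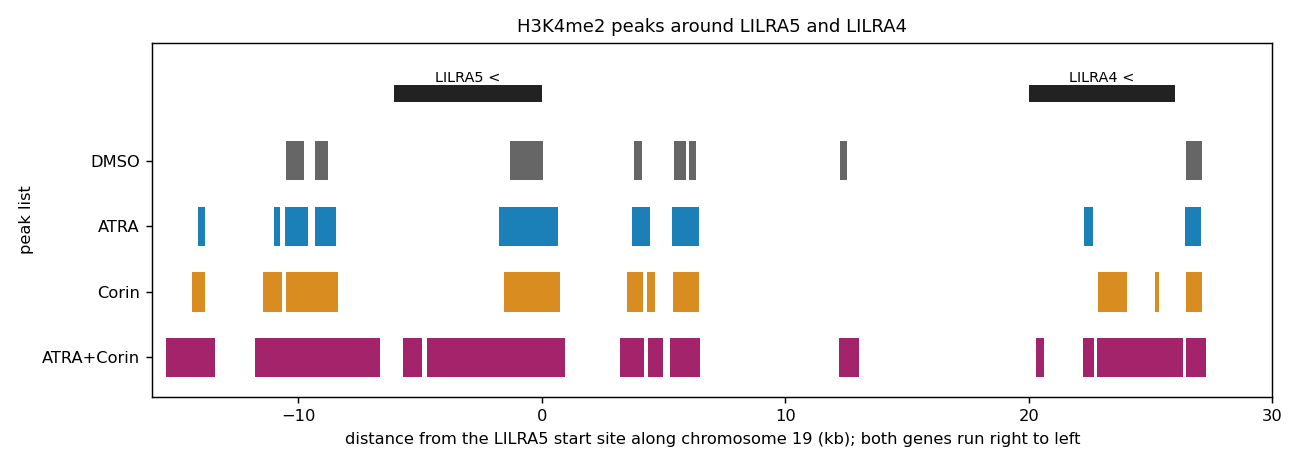
H3K4me2 peaks around LILRA5 and LILRA4 (horizontal axis, kb from the LILRA5 start site; both genes run from right to left), with 1 row per peak list. In the ATRA+Corin row the peaks fill most of both genes, 90.2% of LILRA5 and 66.7% of LILRA4, while the other rows have peaks near the LILRA5 start site and few in LILRA4.

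LILRA2, an activating receptor that senses cleaved immunoglobulin, carried the strongest start-site peak of the family in every list. Its −log10 q was 155.7 with DMSO, 333.4 with ATRA, 133.1 with Corin and 255.5 with both drugs, above 95.5%, 98.4%, 97.5% and 99.4% of the peaks of the respective list. The peak was 4699 bp wide with DMSO, 4280 bp with ATRA, 4990 bp with Corin and 6345 bp with both drugs, and the Corin list had a further peak of 1422 bp just upstream. Unlike LILRB2, LILRA5 and LILRA4, LILRA2 had its highest body coverage with Corin alone, 37.5%, against 19.1% with DMSO, 16.1% with ATRA and 29.6% with both drugs. The Corin list had intronic peaks at 54578155 to 54578855 and 54578994 to 54579820, with a −log10 q of 11.8 and 10.8, where the DMSO and ATRA lists had none. In the ATRA+Corin list only a narrow peak of 261 bp (−log10 q 1.51) fell in the first and none in the second.

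LILRA1, whose product binds HLA class I, had body coverage within 3 points in the 4 lists, while the bases covered within 2.5 kb of its start site were 1.62 times as many with both drugs as with DMSO. Its body was covered over 16.1% with DMSO, 16.9% with ATRA, 18.2% with Corin and 18.7% with both drugs. The start-site peak was 1413 bp wide with DMSO, 1486 bp with ATRA, 1634 bp with Corin and 2296 bp with both drugs. Most of the added width lay upstream of the start site, which the peak passed by 37 bp with DMSO, 3 bp with ATRA, 85 bp with Corin and 697 bp with both drugs. In the ATRA list a separate upstream peak of 505 bp (−log10 q 9.94) ended just before the start site. The summit lay 702 to 830 bp downstream of the start site in LILRA1 and 386 to 428 bp in LILRB1. In LILRB2, LILRA5 and LILRB3 it also lay downstream in every list, by 91 to 1295 bp.

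Across the whole span, the covered share was lowest to highest in the order DMSO, ATRA, Corin and ATRA+Corin. Peaks covered 13.2% of the span with DMSO (50 peaks), 14.8% with ATRA (49 peaks), 18.2% with Corin (67 peaks) and 22.8% with both drugs (69 peaks). Over all of chromosome 19 the shares were 7.58%, 8.14%, 9.46% and 10.4%. The group from LILRB3 to LILRA4 held 12.9 kb of covered sequence with DMSO and 40.4 kb with both drugs, while the whole span held 59.9 kb and 103.4 kb. In percent, this group had 10.52% covered with DMSO, 14.3% with ATRA, 18.0% with Corin and 32.9% with both drugs. The group from LILRA2 to LILRB4 had 7.95%, 8.60%, 10.7% and 11.4%. The sequence between the groups had 16.8%, 17.7%, 21.4% and 22.2%, so there the Corin and ATRA+Corin lists were close.

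**Figure D4:**
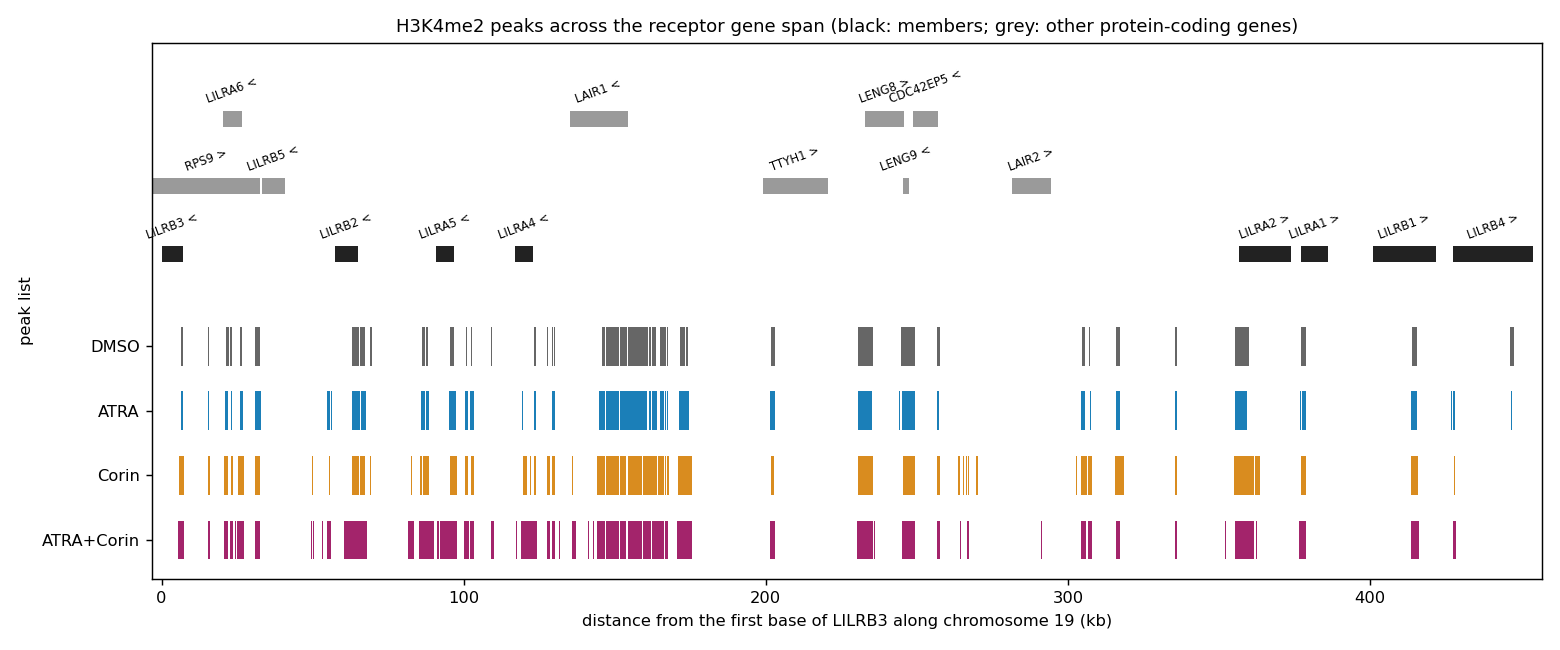
Peaks of the 4 lists across the receptor gene span (horizontal axis, kb from the first base of LILRB3), with the 8 receptor genes in black and other protein-coding genes in grey; arrowheads beside the names give the strand. In the group from LILRB3 to LILRA4, at the left, 32.9% of the sequence is covered in the ATRA+Corin row and 10.52% in the DMSO row.

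Joining peaks from any list that met or touched gave 74 regions across the span, of 84577 in the genome. Of these, 18 lay in a member's body or within 2.5 kb of its start site. Ranked by −log10 q within each list, the region over the LILRA2 start site (54571374 to 54577913) stood first in every list. The next 2 were those of LILRB2 (54278808 to 54284289) and LILRB1 (54629698 to 54632361) with DMSO, of LILRB1 and LILRB2 with ATRA, of LILRB3 (54221787 to 54223865) and LILRB1 with Corin, and of LILRB3 and LILRA5 (54308444 to 54314104) with both drugs. Each of these regions was present in all 4 lists. Regions with a peak under treatment and none in the list compared were called gained, and those with the reverse lost. Compared with DMSO, 8 regions were gained and 5 lost with ATRA, 19 gained and 4 lost with Corin, and 27 gained and 3 lost with both drugs. The gained regions were 10.8%, 25.7% and 36.5% of those in the span, beside 11.7%, 17.3% and 32.1% of the regions of the genome. Between the 2 groups, where no member lies, Corin and ATRA+Corin each gained 13 of 40 regions (32.5%). Corin gained 4 of 27 (14.8%) in the LILRB3 to LILRA4 group and 3 of 9 (33.3%) in the LILRA2 to LILRB4 group. A region that crosses the edge of a group is counted on both sides. In the LILRB3 to LILRA4 group ATRA+Corin gained 13 of 27 regions and lost 1. In the LILRA2 to LILRB4 group it gained 2 of 9 and lost 2. Against Corin alone, ATRA+Corin gained 10 of 27 regions in the first group and lost 0, whereas in the second it gained 0 of 9 and lost 1. Over the genome, 22.5% of the regions were gained in this comparison, and 5236 of 84577 were lost. These comparisons share lists, and the difference between the groups was not tested.

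Counted by gene, at least 1 gained region fell in the body of LILRA4 and LILRB4 with ATRA (18.1% of all genes), of LILRA2, LILRA4 and LILRB4 with Corin (24.5%), and of LILRA2, LILRA4, LILRA5, LILRB2 and LILRB4 with both drugs (33.7%). Among genes in the members' length range the shares were 7.37%, 12.1% and 19.6%. A lost region fell in LILRB1 with ATRA (10.4% of all genes), and in LILRB1 and LILRB4 with Corin (11.0%) and with both drugs (8.63%). For LILRB1 this was the weak intronic DMSO peak, and for LILRB4 the start-site peak. The region that LILRB4 gained over DMSO was the one over the far 5′ end of its gene model. Against ATRA, both drugs gained a region in LILRA2, LILRA4, LILRA5 and LILRB2 (30.9%) and lost one in LILRB4 (9.06%). Against Corin, they gained one in LILRA4, LILRA5 and LILRB2 (28.4%) and lost one in LILRA2 (12.2%).

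Other receptor genes of the complex gave a mixed picture beside the members. Of 17 found in the annotation, 4 had the start site under a peak with DMSO, 4 with ATRA, 5 with Corin and 4 with both drugs. The shares of all genes were 47.3%, 48.1%, 38.0% and 38.0%. LILRA6, the closest neighbour of LILRB3, was covered over 28.1% with DMSO, 30.3% with ATRA, 50.4% with Corin and 64.5% with both drugs. The share of windows that occur once was not computed for LILRA6. The part of reads with several matches in its values, or in their likeness to those of LILRB3, was not tested. LAIR1, an inhibitory collagen receptor, went from 39.2% with DMSO to 57.5% with both drugs, and OSCAR, an activating receptor that pairs with FCER1G, from 38.3% to 71.8%. LILRB5, the natural killer receptor gene NCR1 and the killer cell receptor genes KIR2DL4, KIR2DS4 and KIR3DL3 had no peak in their bodies in any list. Over all genes, 73.2% to 75.5% had a peak in the body across the lists. Receptor genes with peaks thus stood beside receptor genes without them in the complex. The share of windows that occur once was not computed for the genes without peaks either. The part of read placement in their lack of peaks was not tested.

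Most partners of the receptors were marked as well. Over all genes, 61.3% to 62.3% had a peak within 1 kb of the start site across the lists. The median body coverage of all genes was 4.13% with DMSO, 4.69% with ATRA, 5.34% with Corin and 6.04% with both drugs. All 7 genes of adaptors and kinases had a peak within 1 kb of the start site in each list, and their median body coverage was 15.9% with DMSO, 18.7% with ATRA, 23.7% with Corin and 30.3% with both drugs. FCER1G was covered over 63.0% with DMSO, 67.9% with ATRA, 71.4% with Corin and 83.1% with both drugs. The 3 phosphatase genes had medians of 9.99%, 11.2%, 11.1% and 13.0%, and the most covered of them, PTPN6, had 73.3% with DMSO and 77.5% with both drugs. Of 10 ligand genes, 7 had a peak within 1 kb of the start site in every list, among them BST2, the ligand of LILRA4, and B2M. This count is near the share of all genes. HLA-G, APOE and ANGPTL2 had none. For 13 neighbouring genes that encode no receptor, median body coverage was 23.7% with DMSO, 23.03% with ATRA, 24.8% with Corin and 26.4% with both drugs, a narrower range than that of the members; this difference was not tested.

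The cell label was checked on marker genes. A peak lay within 1 kb of the start site for 11 of 12 monocytic and myeloid markers with DMSO, 11 with ATRA, 10 with Corin and 11 with both drugs, and MPO had none in any list. In every list this held for 3 of 5 B cell markers, 2 of 5 T cell markers, 1 of 5 erythroid markers and 1 of 5 natural killer cell markers. Over all genes the share was 61.3% to 62.3% across the lists. The deposited lists held 65172 peaks with DMSO, 66385 with ATRA, 73997 with Corin and 83969 with both drugs. A longer list, and by the estimated relative depth a deeper one, thus came with the ATRA+Corin treatment. With all lists shortened to 65172 peaks, 21.8% of the span was covered with both drugs, beside 13.2% with DMSO. For equal depth, −log10 p was recalculated and peaks under 5 were dropped, which gave 22.0% and 12.5%. Both settings removed whole peaks and left the edges of the kept peaks as deposited. Body coverage of LILRA5 with both drugs was 90.2% under each. Peak widths were thus not adjusted for depth, and the part of depth in the widths was not tested.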

How the data were processed

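H3K4me2 and input libraries of U-937 cells were grouped by their titles. Per the submitters' processing notes, reads went through Trimmomatic, Bowtie2, Picard and MACS2 on hg38; versions, thresholds and the treatment of multiply matching reads are not given in the sources used here. The authors deposited 1 peak list per treatment, pooled over its 2 H3K4me2 libraries. Each list is named as the optimal peaks of a reproducibility overlap, a step whose settings are not given in the sources used here. Whether a peak missing from a list was called and then dropped at that step cannot be told from the lists. In the deposited files the score is the −log10 p multiplied by 10, without decimals, up to 1000. The deposited fold is a ratio over input at the summit, and the authors' −log10 p and −log10 q belong to the same caller. These values were used within a list, and fold and −log10 p also to recover fragments at summits and relative depth (100% of peaks solved, tolerance 0.001 in −log10 p). The lists hold no library totals, so relative depth is an estimate from the lowest recovered backgrounds.

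Computed here, with Python 3.11.15, pandas 2.3.3 and Biopython 1.88, were peaks over canonical GENCODE release 44 start sites, the covered share of gene bodies and of the span, and regions merged from the 4 lists (overlap of at least 1 bp). A 75-base window counted as unique when it occurred once, on either strand, in the reference chromosomes; counting alternative haplotypes too, 4.11% of the span was unique, and whether the authors aligned to those is not given. Interval code and fragment recovery were tested on simulated data. All 8 members are described; in their bodies or within 2.5 kb of their start sites lay 18 regions, and the 3 strongest of each list and every gained or lost one are given. Members, gene lists and motifs were chosen with earlier results of these data known. The 10-point and 1.5-fold sizes, the comparison with genes of the members' length and the ETS-like letters were chosen after values were seen. Settings also tried were peaks at −log10 q 5 or above, equal numbers of peaks, 1 kb merging and other start-site rules. Also tried were 10 kb upstream, 50 kb around the span and, added later, equal depth. Equal depth dropped weak peaks but did not narrow those kept.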

Additional observations from a re-analysis of the deposited data

How the results depend on the processing

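Start-site counts stayed between 6 and 8 members, and the covered share of the span kept its order (DMSO, ATRA, Corin, ATRA+Corin), under each alternative tried. Counts of gained and lost regions did not keep their size. At a −log10 q of at least 5, ATRA against DMSO gained 5 regions and lost 3, Corin against DMSO gained 12, and ATRA+Corin against DMSO gained 18. At the same setting ATRA+Corin against ATRA gained 14 and lost 1, and ATRA+Corin against Corin gained 9 and lost 3. With all lists cut to the length of the shortest, Corin against DMSO gained 11, ATRA+Corin against DMSO gained 16, ATRA+Corin against ATRA gained 14 and lost 5, and ATRA+Corin against Corin gained 11 and lost 5. With peaks within 1 kb merged, the gained and lost counts were 3 and 2 for ATRA against DMSO, 11 and 1 for ATRA+Corin against ATRA, and 8 and 2 for ATRA+Corin against Corin; Corin against DMSO gained 8 and ATRA+Corin against DMSO gained 13. At equal depth, an alternative chosen after seeing the data, ATRA against DMSO lost 3, Corin against DMSO gained 12 and ATRA+Corin against DMSO gained 22. There ATRA+Corin against ATRA lost 1 and ATRA+Corin against Corin lost 3. Merging leaves fewer regions to count; otherwise the cause was not tested. With 10 kb added upstream, coverage was 57.5% for LILRA5 with both drugs, 14.6% for LILRA4 with DMSO and 13.9% with ATRA, 5.53% for LILRB3 with DMSO and 6.44% with ATRA, and 7.52% to 12.2% for LILRA1 over the 4 lists. At a −log10 q of at least 5, as at equal depth, coverage of LILRB4 was 2.11% with ATRA and 0% with Corin, and that of LILRA4 0% with ATRA.

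No paired analysis was possible because each list pools the replicates of its treatment and no test was made; for the same reason leaving out a replicate could not be run. The number of reads behind each list is not given, and the start-site peaks of LILRB4 rest on 25 fragments with DMSO (16.2 to 36.9) and 18 with ATRA (10.7 to 28.4). DMSO was the shallowest list by the estimated relative depth.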

Other observations

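The protein-coding genes outside the span whose body coverage over the 4 lists came closest to the members' median were GPRIN3, FOXJ2, GDE1, ST3GAL6 and CD53, with mean absolute differences of 0.76, 0.82, 0.89, 0.95 and 0.96 percentage points over the 4 lists. CD53, a tetraspanin of leukocytes, was covered over 11.6% with DMSO, 14.9% with ATRA, 21.9% with Corin and 24.9% with both drugs.

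By presence, 31 of the 74 regions in the span (41.9%) were in all 4 lists, compared with 51.2% of the regions of the genome. A further 14 (18.9%) were in the ATRA+Corin list alone, beside 16.3% of the genome's regions, and 8 (10.8%) in the Corin list alone, beside 4.8%. The Corin-only regions lay between the 2 groups of receptor genes, except the LILRA2 intronic one at 54578994 to 54579820. Most were weak: the LILRA2 one had a −log10 q of 10.81 and that at 54479880 to 54480128 had 6.31. The rest had 0.57 to 3.3, under the cut of 5 used above. These shares were not tested.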
